A study of Homo sapiens with 6 samples.

Results

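MicroRNA host genes are transcribed into long RNAs that carry the hairpins of 1 or more microRNAs. The 8 genes described here are MIR29B2CHG, MIR17HG, MIR222HG, MIR210HG, MIR22HG, MIR100HG, MIR31HG and MIR155HG. They were chosen by symbol, with earlier results of these data known, from the 60591 rows of a table of counts per gene. All 8 have a row. Counts were found for 6 of them, and the same 6 were among the 20676 genes with enough counts to test. MIR29B2CHG entered the list because it had been called higher under low flow than in static cells in an earlier look at the same libraries. Its values are therefore given as a description, with no test, in every comparison.

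The study asked how fluid movement of the kind that mechanical loading drives through bone affects breast cancer cells. The cells were MDA-MB-231, an established human line from a triple-negative breast cancer, in a variant that homes to bone. They were kept in a 3-dimensional loading model with no flow (static), with flow at 1 mL/min (low flow) or with flow at 15 mL/min (high flow), and 2 libraries of polyadenylated RNA were made per condition. No group carried any other agent or engineered allele that the labels name. All 6 libraries belong to the second experiment of the study by their titles, and the bone-homing variant is a property that static, low flow and high flow cells share.

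A host transcript is copied by RNA polymerase II as a primary microRNA. In the nucleus the DROSHA and DGCR8 complex cuts out each hairpin, XPO5 exports it, and DICER1 trims it to the mature microRNA that an Argonaute protein then uses to find messenger RNAs. The seed of the mature microRNA, its bases 2 to 8, sets most of that pairing, so microRNAs with the same seed share many targets. A library of polyadenylated RNA records the host transcript and not the mature microRNA, whose level was not measured here.

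The mature sequences below are the products for which the host genes are known, because the seed decides which target genes belong beside which host. They are from RefSeq on GRCh38.p14, 5′ to 3′, with the seed in capitals. MIR29B2CHG carries both miR-29b and miR-29c, which share the seed AGCACCA with miR-29a from another locus on chromosome 7, shown for comparison. In the RefSeq table of 2370 mature human microRNAs, these 3 are the only entries with that seed.
hsa-miR-29b-3p: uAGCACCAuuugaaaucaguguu
hsa-miR-29c-3p: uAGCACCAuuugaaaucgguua
hsa-miR-29a-3p: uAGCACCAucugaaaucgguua

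MIR222HG carries miR-221 and miR-222, the only 2 entries of that table with the seed GCUACAU.
hsa-miR-221-3p: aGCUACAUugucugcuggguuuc
hsa-miR-222-3p: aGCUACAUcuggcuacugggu

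MIR17HG carries 6 hairpins whose leading products fall into 4 seeds. The seed of miR-17 and miR-20a occurs in 8 entries of the table, the seed of miR-18a in 3, the seed of the miR-19 pair in 2 and the seed of miR-92a in 6.
hsa-miR-17-5p: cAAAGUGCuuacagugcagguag
hsa-miR-20a-5p: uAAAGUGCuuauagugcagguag
hsa-miR-18a-5p: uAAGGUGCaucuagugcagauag
hsa-miR-19a-3p: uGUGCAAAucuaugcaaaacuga
hsa-miR-19b-3p: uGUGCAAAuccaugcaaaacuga
hsa-miR-92a-3p: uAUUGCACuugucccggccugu

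The other 5 hosts carry 7 leading products with 7 seeds. In order they belong to MIR210HG, MIR22HG, MIR100HG (3 products), MIR31HG and MIR155HG. The let-7a seed occurs in 11 entries of the table, and the seeds of miR-210, miR-22, miR-31 and miR-155 in 1 each.
hsa-miR-210-3p: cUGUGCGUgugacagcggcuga
hsa-miR-22-3p: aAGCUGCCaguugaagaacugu
hsa-miR-100-5p: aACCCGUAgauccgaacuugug
hsa-let-7a-5p: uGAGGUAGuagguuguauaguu
hsa-miR-125b-5p: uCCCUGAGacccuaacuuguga
hsa-miR-31-5p: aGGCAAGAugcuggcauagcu
hsa-miR-155-5p: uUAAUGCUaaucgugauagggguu

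Library totals ran from 17822642 to 23544307 counts in static, from 45174328 to 47067620 under low flow and from 43965176 to 53279537 under high flow, so the static values of weak genes rest on the fewest counts. The labels number the replicates without saying that they were separate cultures, and p-values then measure only the spread between these libraries. By the column names, static and low flow were sequenced in the same lane and high flow in a different one. The high flow column names also follow another pattern and have another ending, which the labels do not explain. Effects of lane, or of any other difference in handling, and of flow cannot be told apart wherever high flow is compared. The labels call the cells endothelial, and the data were set against markers. All 8 markers of MDA-MB-231 averaged at least 1 CPM (counts scaled to library size, with TMM factors), with VIM at 3620 to 5030 CPM, and PGR, of 5 receptor and luminal markers listed as absent from the line, had no count. ESR1 had at most 0.391 CPM, while ERBB2 averaged 58.0 CPM, FOXA1 17.8 CPM and GATA3 8.08 CPM over the 6 libraries. Of 11 endothelial markers, 5 averaged at least 1 CPM (PECAM1, KDR, TIE1, ESAM and ROBO4), while the defining markers CDH5, VWF, CLDN5 and EMCN stayed at or under 0.221 CPM in every library. The summed endothelial list stood at 135 and 107 CPM in static, 132 and 144 CPM under low flow, and 150 and 148 CPM under high flow. PECAM1 was higher under low flow (log2 fold change 0.70, adjusted p = 0.00778) and under high flow (0.55, adjusted p = 0.0139) than in static. Under high flow ROBO4 was also higher, and KDR and ERG were lower, than in static. The part of these genes in the results below was not tested.

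MIR222HG and MIR17HG rose under low flow, and MIR222HG also rose under high flow. MIR29B2CHG was listed for its call in low flow against static, and every comparison of it reuses libraries of that call, so the counts that follow are over the other 5 host genes tested. Of the 5, 2 were higher under low flow than in static (MIR17HG and MIR222HG) and 0 were lower. Over all genes tested, 6.74% passed in that comparison, 3.25% as higher and 3.49% as lower. The median log2 fold change of the 5 was 1.04, against 0.0074 over all genes. In 5 of 5 both low flow libraries lay above both static libraries, as was the case for 27.1% of all genes. High flow against static gave 1 of 5 as higher (MIR222HG) and 0 as lower, where 13.9% of all genes passed and 7.49% as higher, with a median of 0.50 against 0.0025 over all genes. There 4 of 5 had both high flow libraries above both static libraries, against 29.9% of all genes. High flow against low flow gave 0 of 5 in either direction by edgeR and by DESeq2, where 0.334% of all genes passed, 0.242% as higher and 0.0919% as lower. At an unadjusted p under 0.05, 3 of the 5 were lower in edgeR. The share of all genes at that threshold was not computed, so nothing is read from that number. The median log2 fold change of the 5 was -0.26 against 0.0058 over all genes. In 3 of 5 both high flow libraries lay below both low flow libraries, against 21.5% of all genes. MIR29B2CHG itself was called higher under low flow than in static and lower under high flow than under low flow, and nothing is read from those calls. The comparisons share libraries and are not independent of one another. The 5 were also chosen with earlier results of these data known. The contrasts with all genes are therefore a description, and not a test of these hosts as a set. Here and below, an adjusted p is from edgeR's quasi-likelihood test over all 20676 genes with Benjamini-Hochberg adjustment, and a gene rose, fell or passed where it was under 0.05.

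**Figure D1:**
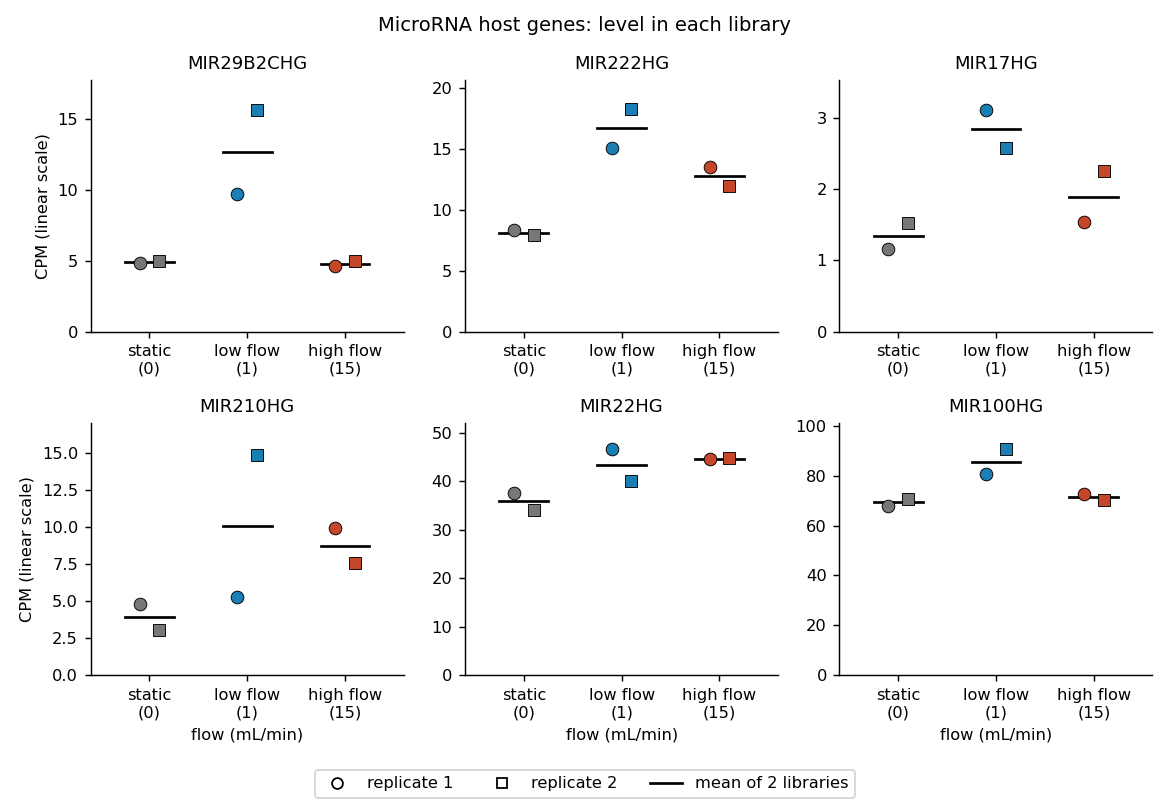
Level of the 6 host genes with counts in each library, in CPM on a linear axis from 0, by flow rate (0, 1 and 15 mL/min). Circles are replicate 1, squares replicate 2 and bars the mean of 2 libraries. MIR29B2CHG stands at 9.70 and 15.6 CPM under low flow and between 4.59 and 4.98 CPM in the other 4 libraries. MIR210HG has low flow libraries at 5.27 and 14.9 CPM.

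MIR29B2CHG is annotated as a long intergenic noncoding RNA on the minus strand of chromosome 1 (GENCODE 29, GRCh38, 207801518 to 207879096), with 16425 bases of exon. Both of its hairpins lie in exons near the 3′ end. The miR-29 family is known for repressing collagens, elastin, fibrillin and other matrix genes, and DNA methyltransferases. MIR29B2CHG had 4.80 and 4.96 CPM in static (87 and 114 counts), 9.70 and 15.6 CPM under low flow (442 and 751 counts), and 4.59 and 4.98 CPM under high flow (196 and 265 counts). Both low flow libraries stood above the other 4, which lay within a narrow band, and the static and high flow libraries overlapped. As means, these are 4.88 ± 0.112 CPM in static, 12.7 ± 4.17 CPM under low flow and 4.78 ± 0.275 CPM under high flow (SD, n = 2 each). The fitted log2 fold change was 1.38 (SE 0.21) for low flow against static, or 2.59-fold higher, and -0.028 (SE 0.22) for high flow against static. For high flow against low flow it was -1.40 (SE 0.19), or 2.64-fold lower. Within low flow the second library was 1.61 times the first. The fold change against static was 0.99 on the log2 scale without the second low flow library and 1.68 without the first. In RNA from a whole culture, fewer cells that express a gene and less of its RNA per cell cannot be told apart.

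The hairpins of MIR29B2CHG have rows of their own, and since they lie in its exons, the host row may hold the same reads. The row of MIR29C, the hairpin of miR-29c (chromosome 1, 207801852 to 207801939), held 3 and 4 counts in static, 18 and 26 under low flow, and 5 and 11 under high flow. The row of MIR29B2 (207802443 to 207802523) held 0 and 1 counts in static, 11 and 17 under low flow, and 3 and 1 under high flow. Scaled to CPM, the low flow libraries were the highest in both rows, but neither row passed in any comparison. MIR29C counts per kilobase were 6.50 times those of the host's exons in static, 6.88 times under low flow and 6.48 times under high flow. These ratios rest on 7, 44 and 16 counts. Reads that extend past so short a row may raise them, so their size is not read as denser coverage. For MIR29B2 the ratios were 1.01, 4.76 and 1.76, on 1, 28 and 4 counts, so they varied more, with the highest under low flow. The rows of the other miR-29 hairpins, on chromosome 7, held few counts, as did that of MIR29B2 outside low flow. MIR29A had 0 to 5 counts and MIR29B1 0 or 1 count per library. Such rows do not show how much of a mature microRNA was present. LINC-PINT, a noncoding RNA transcribed near that locus, had 6.45 and 7.48 CPM in static, 6.39 and 5.76 CPM under low flow, and 4.77 and 5.82 CPM under high flow. It passed in no comparison, and was 1 of the host genes listed for comparison.

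MIR222HG lies on the minus strand of chromosome X (45745211 to 45770274), with 2785 bases of exon, and its hairpins lie in introns. The miR-221 and miR-222 pair is known for repressing the cell cycle inhibitors CDKN1B and CDKN1C, and is abundant in basal-like breast cancer lines. MIR222HG had 8.32 and 7.91 CPM in static (151 and 182 counts), 15.1 and 18.3 CPM under low flow (690 and 880 counts), and 13.5 and 12 CPM under high flow (577 and 640 counts). The 3 conditions did not overlap, with static lowest and low flow highest. MIR222HG rose to 16.7 ± 2.22 CPM under low flow, against 8.12 ± 0.293 CPM in static (SD, n = 2 each), a log2 fold change of 1.04 (SE 0.14, adjusted p = 0.000631). It rose to 12.8 ± 1.05 CPM under high flow, a log2 fold change of 0.65 (SE 0.15, adjusted p = 0.00749) against static. The step between the flow rates, -0.39 for high flow against low flow (SE 0.13, adjusted p = 0.33), did not pass. The high flow call was lost without the second static library (adjusted p = 0.094) and without the first high flow library (adjusted p = 0.123). In such fits, here and below, the remaining library of that condition is assumed to vary like the other conditions.

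The hairpin row of miR-221 also rose under both flow rates. MIR221 (chromosome X, 45746157 to 45746266) had 1.93 and 1.87 CPM in static, 3.84 and 5.82 CPM under low flow, and 3.81 and 3.94 CPM under high flow. All 4 flow libraries stood above both static libraries, and the 2 flow rates overlapped. MIR221 rose under low flow (log2 fold change 1.35, adjusted p = 0.00487) and under high flow (1.03, adjusted p = 0.00989) against static. It did not pass for high flow against low flow (-0.32, adjusted p = 0.639). MIR221 lies in an intron of the annotated host, so its reads are not among those counted on the host's exons. Its counts came to 23.4% of the host's in static, 29.0% under low flow and 30.6% under high flow. Per kilobase of annotated length this was 5.93, 7.34 and 7.76 times the exon density. Reads can extend past so short a row and still count on it, which may raise these ratios. A denser coverage of the hairpin is therefore not read from them. The MIR222 row, the neighbouring hairpin, had 0.276 and 0.565 CPM in static, 0.681 and 1.04 CPM under low flow, and 0.632 and 0.488 CPM under high flow, and passed in no comparison. AC234772.2, a noncoding gene inside the MIR222HG body on the same strand, had 1 count in each static library. It was higher under high flow than in static (log2 fold change 3.24, adjusted p = 0.0163), at 0.281 and 0.676 CPM against 0.0551 and 0.0435 CPM. Low flow, at 0.417 and 0.353 CPM, had a log2 fold change of 2.90 against static and did not pass (adjusted p = 0.051). The reads of AC234772.2 and those of an unspliced host transcript cannot be told apart.

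**Figure D2:**
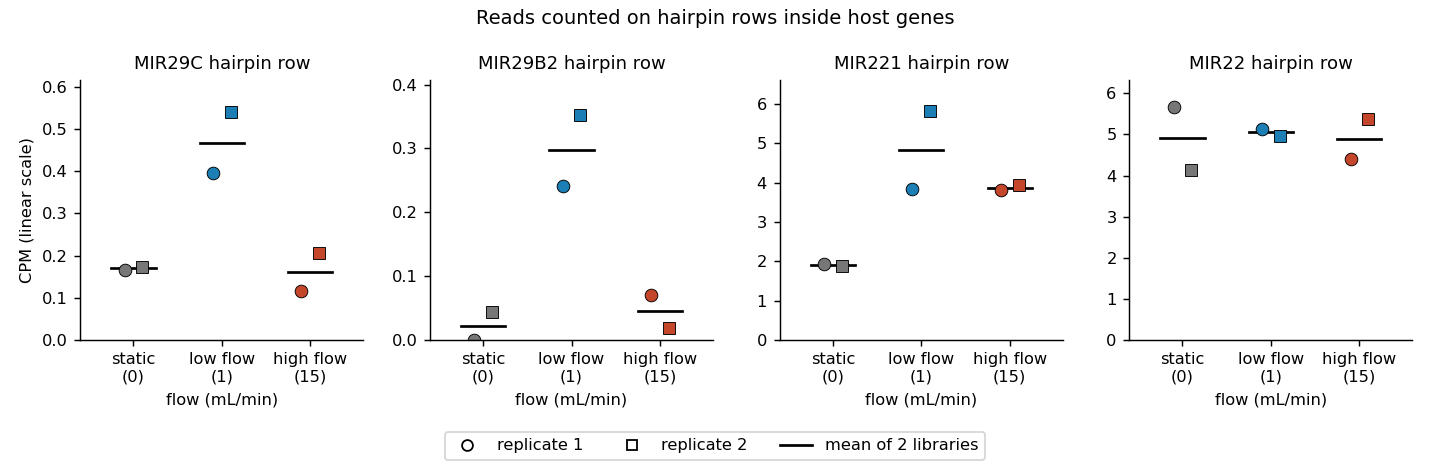
Counts on 4 hairpin rows inside host genes in each library, in CPM on linear axes from 0, by flow rate (0, 1 and 15 mL/min). Circles are replicate 1, squares replicate 2 and bars the mean of 2 libraries. MIR29C is highest in both low flow libraries (0.395 and 0.540 CPM), MIR221 is higher in all 4 flow libraries than in static, and MIR22 lies between 4.13 and 5.68 CPM throughout.

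MIR17HG, on the plus strand of chromosome 13 (91347820 to 91354579, 3492 bases of exon), carries the miR-17-92 cluster, a MYC target with known growth-promoting activity. It had 1.16 and 1.52 CPM in static (21 and 35 counts), 3.12 and 2.58 CPM under low flow (142 and 124 counts), and 1.54 and 2.25 CPM under high flow (66 and 120 counts). Low flow libraries were above all others, and the first high flow library was only just above the second static library. MIR17HG rose to 2.85 ± 0.382 CPM under low flow, against 1.34 ± 0.257 CPM in static (SD, n = 2 each), a log2 fold change of 1.07 (SE 0.28, adjusted p = 0.0285). High flow, at 1.90 ± 0.501 CPM, did not pass against static (log2 fold change 0.50, SE 0.29, adjusted p = 0.261) or against low flow (-0.57, SE 0.24, adjusted p = 0.45). The low flow call rests on 21 and 35 static counts, and it was lost without the first (adjusted p = 0.146) or the second static library (adjusted p = 0.127). It was also lost with only the 4 libraries compared in the fit (adjusted p = 0.053). All 6 of its hairpins lie in annotated exon, and their rows held 0 to 7 counts per library, too few to test.

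MIR210HG lies on the minus strand of chromosome 11 (565660 to 568457, 2321 bases of exon), with its hairpin in an intron. It is known as a target of hypoxia-inducible factors, and miR-210 as a repressor of iron-sulphur cluster assembly through ISCU. MIR210HG had 4.80 and 3.04 CPM in static (87 and 70 counts), 5.27 and 14.9 CPM under low flow (240 and 717 counts), and 9.92 and 7.60 CPM under high flow (424 and 405 counts). Both high flow libraries stood above both static libraries, while the low flow libraries differed 2.83-fold and lay on either side of the high flow pair. The means were 3.92 ± 1.24 CPM in static, 10.1 ± 6.81 CPM under low flow and 8.76 ± 1.64 CPM under high flow (SD, n = 2 each). Neither low flow (log2 fold change 1.39, SE 0.71, adjusted p = 0.364) nor high flow (1.18, SE 0.71, adjusted p = 0.381) passed against static. High flow against low flow had a log2 fold change of -0.21 (SE 0.61, adjusted p = 0.95). These results turned on single low flow libraries, in fits where the 1 low flow library that remains is assumed to vary like the other conditions. Low flow against static had a log2 fold change of 1.95 (adjusted p = 7.76e-11) without the first low flow library and 0.45 (adjusted p = 0.448) without the second. High flow against static passed without the first (adjusted p = 1.7e-06) or the second low flow library (adjusted p = 3.02e-06), and with only the 4 libraries compared in the fit (adjusted p = 2.91e-05). High flow against low flow was -0.77 (adjusted p = 0.0132) without the first low flow library and 0.73 (adjusted p = 0.0651) without the second. The hairpin row MIR210 followed the same order of libraries within low flow, with 13 and 42 counts, and passed in no comparison.

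MIR22HG was the most abundant of the hosts per length of exon. It lies on the minus strand of chromosome 17 (1711493 to 1717174, 2986 bases of exon), and miR-22 is known as a repressor of TET2 and of ESR1. MIR22HG had 37.6 and 34.1 CPM in static (682 and 785 counts), 46.6 and 40.1 CPM under low flow (2122 and 1928 counts), and 44.5 and 44.7 CPM under high flow (1901 and 2380 counts). All 4 flow libraries lay above both static libraries, and the 2 flow rates overlapped. The means were 35.9 ± 2.46 CPM in static, 43.3 ± 4.61 CPM under low flow and 44.6 ± 0.141 CPM under high flow (SD, n = 2 each). Neither high flow (log2 fold change 0.32, SE 0.11, adjusted p = 0.058) nor low flow (0.27, SE 0.11, adjusted p = 0.129) passed against static, and high flow against low flow was 0.042 (SE 0.10, adjusted p = 0.932). High flow against static passed without the first (adjusted p = 0.0327) or the second low flow library (adjusted p = 0.0314), with only the 4 libraries compared (adjusted p = 0.035), with offsets for length and GC content (adjusted p = 0.0241) and with no expression filter (adjusted p = 0.0222). Low flow against static passed with those offsets (adjusted p = 0.0451). The exonic hairpin row MIR22 had 5.68 and 4.13 CPM in static, 5.14 and 4.97 CPM under low flow, and 4.4 and 5.37 CPM under high flow. Its log2 fold change was 0.0084 for high flow (adjusted p = 0.983) and 0.053 for low flow (adjusted p = 0.907) against static, beside 0.32 and 0.27 for the host. Its counts were 13.5% of the host's in static, 11.7% under low flow and 11.1% under high flow.

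MIR100HG, the longest of the hosts (chromosome 11, minus strand, 122028327 to 122556721, 19385 bases of exon), carries let-7a-2, miR-100 and miR-125b-1 in introns. These microRNAs are known for repressing growth genes, among them MYC and PLK1. MIR100HG had 68.0 and 70.6 CPM in static (1233 and 1624 counts), 80.7 and 90.8 CPM under low flow (3677 and 4368 counts), and 72.7 and 70.3 CPM under high flow (3108 and 3743 counts). The low flow libraries were the highest, and high flow overlapped static. Low flow, at 85.7 ± 7.11 CPM against 69.3 ± 1.85 CPM in static (SD, n = 2 each), did not pass (log2 fold change 0.31, SE 0.098, adjusted p = 0.0653). High flow, at 71.5 ± 1.74 CPM, had a log2 fold change of 0.045 (SE 0.098, adjusted p = 0.802) against static and -0.26 (SE 0.096, adjusted p = 0.384) against low flow. Low flow against static passed with no expression filter (adjusted p = 0.0289), with DESeq2 (adjusted p = 0.0455) and without the first low flow library (adjusted p = 0.022). The hairpin row MIR125B1 held 1 and 5 counts in static, 14 and 28 under low flow, and 7 and 7 under high flow, and MIRLET7A2 held 6 and 4, 21 and 24, and 11 and 25. Neither passed in any comparison, and MIR100, at 3 to 11 counts, was not tested.

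MIR31HG and MIR155HG had 0 counts in all 6 libraries, and so had the MIR31 and MIR155 hairpin rows. At these depths a count of 0 allows up to 0.165 and 0.130 CPM in the static libraries, 0.0659 and 0.0623 CPM under low flow, and 0.0702 and 0.0563 CPM under high flow (3 counts, counting error only). miR-31 is known as a suppressor of breast cancer metastasis, and miR-155 as a regulator of immune cells. MIR31HG lies on chromosome 9 (21455642 to 21559669, minus strand, 745 bases of exon) and MIR155HG on chromosome 21 (25561909 to 25575168, plus strand, 1600 bases of exon). Of the annotated rows within 100000 bases of MIR31HG, 12 of 12 had 0 counts in all 6 libraries, but most are interferon genes and pseudogenes that few cells express. MTAP, a methionine salvage enzyme that most cells express, and the cell cycle inhibitors CDKN2A and CDKN2B lie 242874, 408084 and 443234 bases from MIR31HG. All 3 had 0 counts in all 6 libraries. They were looked up after the MIR31HG values were seen, and DNA copy number was not measured. Next to MIR155HG, MRPL39, a mitochondrial ribosomal protein gene 10488 bases away, had 17.8 to 20.5 CPM in all 6 libraries. MRPL39 was the 1 of 4 annotated neighbours there with enough counts to test.

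**Figure D3:**
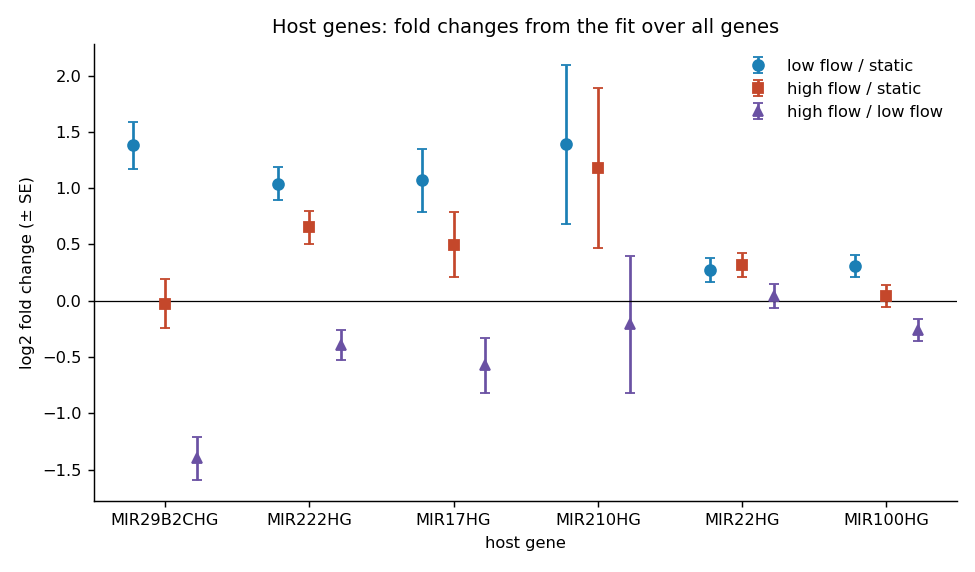
Log2 fold changes of the 6 host genes with counts, with bars of ± 1 SE from the fit over all genes, for low flow against static (circles), high flow against static (squares) and high flow against low flow (triangles). Low flow against static is above 0 for every gene, and MIR210HG has the widest bars (SE 0.71 in both comparisons with static).

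Levels of different hosts are compared per kilobase of exon, as mean CPM per kilobase over 2 libraries. MIR22HG had 12 in static, 14.5 under low flow and 14.9 under high flow, and its lowest library (11.4) was above the highest of every other host (6.57, in MIR222HG). MIR222HG, MIR100HG and MIR210HG came next with overlapping ranges. They averaged 2.91, 3.57 and 1.69 in static, 6.0, 4.42 and 4.34 under low flow, and 4.58, 3.69 and 3.78 under high flow. MIR100HG was above MIR222HG in both static libraries, and below it in both libraries of either flow rate. MIR210HG was lowest of these 3 in static, and ran from 2.27 to 6.42 within low flow. MIR17HG (0.384, 0.815 and 0.544) and MIR29B2CHG (0.297, 0.770 and 0.291) were the lowest hosts with counts, and their ranges overlapped under low flow. The lengths are unions of all annotated exons, so a host that uses few of its annotated exons is given too low a value.

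The start of a host gene was read from RefSeq, from 250 bases before to 50 after it. The MIR29B2CHG window is shown because it is the host with the largest fitted difference between the flow rates, with CCAAT and its reverse complement ATTGG in capitals. It lies at chr1:207822654-207822953 on the minus strand of GRCh38.p14, downstream of the start that GENCODE 29 gives.
MIR29B2CHG: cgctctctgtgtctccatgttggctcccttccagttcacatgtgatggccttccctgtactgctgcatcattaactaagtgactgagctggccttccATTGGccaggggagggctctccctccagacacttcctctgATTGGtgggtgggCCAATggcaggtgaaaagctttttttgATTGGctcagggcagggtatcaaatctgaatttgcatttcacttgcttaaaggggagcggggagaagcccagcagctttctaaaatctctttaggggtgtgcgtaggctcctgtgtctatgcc

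CCAAT was matched on both strands 4 times in that window, with first bases at -153, -113, -100 and -73 from the start. At least 1 match was found in 34.614% of 35116 RefSeq promoters of this length, and at least 4 in 0.991%. MIR222HG and MIR22HG had 2 matches each and MIR17HG and MIR210HG 1 each, as did 2 of the 6 windows of MIR100HG. The MIR210HG window is shown because the gene is a known hypoxia target, with the hypoxia response cores ACGTG and GCGTG in capitals. It lies at chr11:568408-568707 on the minus strand.
MIR210HG: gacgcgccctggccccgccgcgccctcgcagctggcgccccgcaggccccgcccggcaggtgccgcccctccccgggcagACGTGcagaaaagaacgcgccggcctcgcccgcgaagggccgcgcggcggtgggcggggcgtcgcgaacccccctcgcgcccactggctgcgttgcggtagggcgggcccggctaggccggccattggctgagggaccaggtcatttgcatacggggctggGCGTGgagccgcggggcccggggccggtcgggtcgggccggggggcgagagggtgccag

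These cores, matched on both strands, were at -170 and -9. At least 1 was present in 48.445% of all promoters and at least 2 in 23.143%, MIR22HG and MIR155HG among them with 2 each. A window of MIR100HG had 1, at -220. The AP-1 letters TGACTCA or TGAGTCA occurred only in the MIR155HG window among the members (4.949% of all promoters), and the E-box CACGTG in none (7.256% of all promoters). The TEAD core GGAATG occurred only in a window of MIR100HG, at -33 (14.033% of all promoters). The motifs were chosen after the sequences were seen, and a match is a description of the letters, not a bound site.

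Genes reported as targets of the hosted microRNAs were followed as lists written from background knowledge. For miR-29, 35 of 38 listed targets were tested. Under low flow, when MIR29B2CHG was at its highest, 5 of the 35 were higher than in static and 0 were lower, and their median log2 fold change was 0.091. Under high flow 11 were higher and 1 was lower than in static, with a median of 0.14. Over all genes, 3.25% passed as higher under low flow and 7.49% under high flow. COL1A1, a chain of type I collagen, had 11.7 and 12.7 CPM in static, 22.3 and 17.9 CPM under low flow, and 45 and 38 CPM under high flow. The 3 conditions did not overlap, and COL1A1 rose under low flow (log2 fold change 0.72, adjusted p = 0.00681) and under high flow (1.76, adjusted p = 1.47e-06) against static. PDGFB, a platelet-derived growth factor chain, had 0.937 and 0.913 CPM in static, 3.42 and 5.84 CPM under low flow, and 15.9 and 12.8 CPM under high flow. It rose under low flow (2.32, adjusted p = 0.00138) and under high flow (3.95, adjusted p = 4.47e-06). These 2 genes were also the 2 of 35 that were higher under high flow than under low flow, with log2 fold changes of 1.04 (adjusted p = 0.00111) for COL1A1 and 1.62 (adjusted p = 0.00387) for PDGFB, where 0.242% of all genes passed as higher. NREP (log2 fold change 0.81, adjusted p = 0.00674) and the microfibril gene FBN1 (0.45, adjusted p = 0.0133) rose under low flow. Both also rose under high flow against static (NREP 0.67, adjusted p = 0.00796, and FBN1 0.34, adjusted p = 0.0293). HDAC4 (0.61, adjusted p = 0.00339), a histone deacetylase, and COL5A1 (0.82, adjusted p = 0.00663) rose under high flow. ELN, the elastin gene, was the 1 that fell under high flow, with 0.234 and 0.488 CPM against 1.82 and 1.61 CPM in static (-2.20, adjusted p = 0.0191).

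For miR-221 and miR-222, 13 of 14 listed targets were tested. Under low flow 1 was higher and 3 were lower than in static (median -0.023), and under high flow 1 was higher and 4 were lower (median -0.054). The shares of all genes that passed as lower were 3.49% and 6.43%. DDIT4, an inhibitor of mTORC1 signalling, had 540 and 556 CPM in static, 318 and 265 CPM under low flow, and 192 and 196 CPM under high flow, with no overlap. It fell under low flow (log2 fold change -0.91, adjusted p = 0.000116) and under high flow (-1.50, adjusted p = 5.61e-07) against static. CDKN1C, the inhibitor p57, had 12.2 and 12.5 CPM in static, 7.29 and 6.86 CPM under low flow, and 8.59 and 6.76 CPM under high flow. CDKN1C fell under low flow (-0.80, adjusted p = 0.00712) and under high flow (-0.69, adjusted p = 0.00764). BBC3, the pro-apoptotic PUMA, fell under low flow (-0.76, adjusted p = 0.0175) and under high flow (-1.27, adjusted p = 0.0004). CDKN1B, the inhibitor p27, had 32.9 and 35.2 CPM in static, 35.5 and 39.9 CPM under low flow, and 23.3 and 23.4 CPM under high flow. Its low flow libraries were the highest and its high flow libraries the lowest. CDKN1B fell under high flow against static (-0.55, adjusted p = 0.00387) and against low flow (-0.69, adjusted p = 0.00427), and did not pass for low flow against static (0.15, adjusted p = 0.428). BMF, another pro-apoptotic gene of this list, went the other way, at 48.3 and 44.8 CPM in static, 93.2 and 98.5 CPM under low flow, and 101 and 91.3 CPM under high flow. It rose under low flow (1.04, adjusted p = 3.71e-05) and under high flow (1.05, adjusted p = 6.02e-06). Between the flow rates 0 of 13 were higher and 2 lower (CDKN1B and DDIT4), against 0.0919% of all genes as lower.

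**Figure D4:**
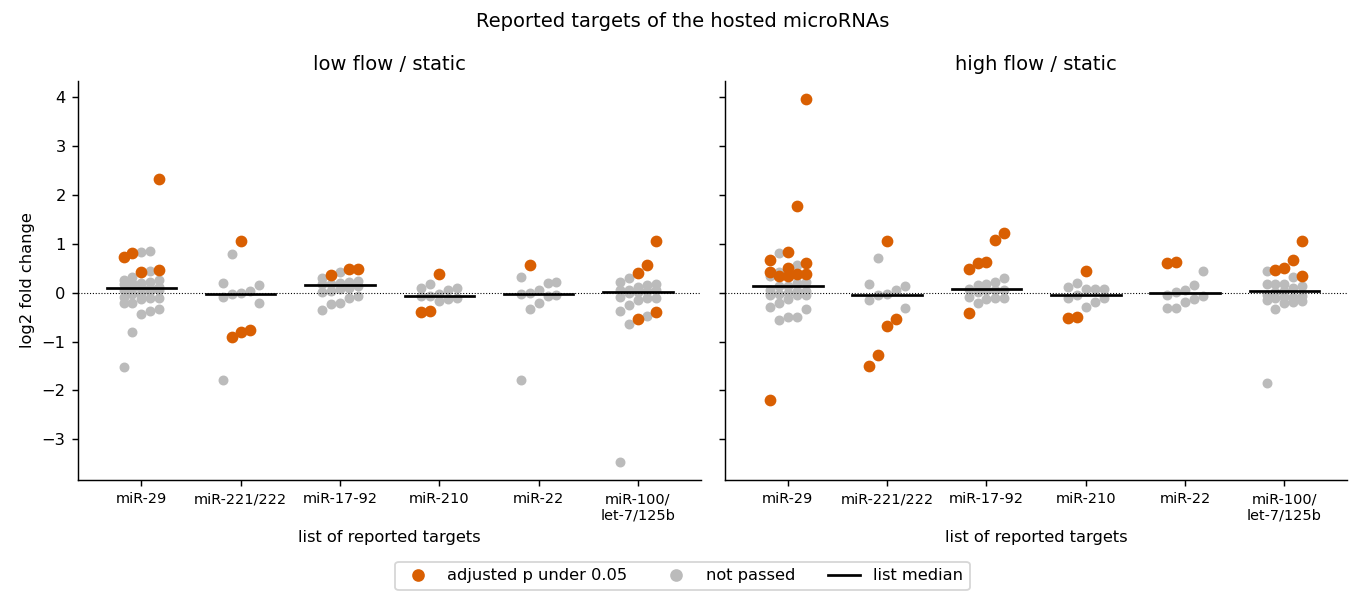
Log2 fold changes of reported targets of the hosted microRNAs, for low flow against static (left) and high flow against static (right). Each point is a gene, orange where the adjusted p was under 0.05, and bars are list medians, which lie between -0.077 and 0.154. In the miR-221 and miR-222 list, 3 genes under low flow and 4 under high flow are called lower, with BMF the 1 called higher.

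For the miR-17-92 cluster, all 20 listed targets were tested. For this list and those below, the shares of all genes that passed against static were 3.25% as higher and 3.49% as lower under low flow, and 7.49% as higher and 6.43% as lower under high flow. Low flow had 3 higher and 0 lower than in static (median 0.15), and high flow 5 higher and 1 lower (median 0.062). RBL2 (log2 fold change 0.49, adjusted p = 0.0105), a pocket protein of the retinoblastoma family, the integrin gene ITGA5 (0.47, adjusted p = 0.0329) and the BMP receptor gene BMPR2 (0.36, adjusted p = 0.0383) rose under low flow. ITGA5 also rose under high flow against static (0.60, adjusted p = 0.00651). THBS1 and CCN2, secreted matricellular proteins that the cluster is known to repress, rose under high flow. THBS1 had 533 and 592 CPM in static, 877 and 625 CPM under low flow, and 1310 and 1280 CPM under high flow. Its log2 fold change was 1.21 for high flow against static (adjusted p = 0.000119) and 0.79 for high flow against low flow (adjusted p = 0.0169). CCN2 had 265 and 250 CPM in static, 315 and 226 CPM under low flow, and 568 and 509 CPM under high flow. The log2 fold change of CCN2 under high flow was 1.06 (adjusted p = 0.0004) against static and 0.99 (adjusted p = 0.00444) against low flow, and both high flow libraries were above all others. CDKN1A (0.63, adjusted p = 0.00102) and ZBTB4 (0.49, adjusted p = 0.00601) also rose under high flow against static, and HIF1A fell (-0.41, adjusted p = 0.018).

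For miR-210, 13 of 15 listed targets were tested, and 1 was higher and 2 were lower than in static under either flow rate (medians -0.077 under low flow and -0.051 under high flow). ISCU, the iron-sulphur cluster scaffold, had 65.3 and 66.1 CPM in static, 53.3 and 47.3 CPM under low flow, and 47.7 and 44.9 CPM under high flow. All 4 flow libraries lay below both static libraries, and ISCU fell under low flow (log2 fold change -0.39, adjusted p = 0.0283) and under high flow (-0.51, adjusted p = 0.004). CASP8AP2, an apoptosis adaptor, fell under low flow (-0.39, adjusted p = 0.0486) and under high flow (-0.52, adjusted p = 0.0068), and MNT, a MYC antagonist, rose (0.39, adjusted p = 0.046, and 0.43, adjusted p = 0.0168). For let-7a, miR-100 and miR-125b, 25 of 26 were tested. Low flow had 3 higher and 2 lower (median 0.015), and high flow 5 higher and 0 lower (median 0.025). The 2 that fell under low flow were PLK1, a mitotic kinase (-0.55, adjusted p = 0.00681), and MYC, at 42.6 and 35.3 CPM against 52.0 and 50.8 CPM in static (-0.40, adjusted p = 0.0383). Under high flow RPTOR, a component of mTORC1 (0.47, adjusted p = 0.00426), IGF1R, a growth factor receptor (0.49, adjusted p = 0.00526), and the transcription factor gene ARID3A (0.67, adjusted p = 0.0282) rose beside BMF, and IGF1R also rose under low flow (0.39, adjusted p = 0.0296). MYC was the 1 of 25 that was higher under high flow than under low flow, at 68.7 and 59.9 CPM (0.72, adjusted p = 0.00427). For miR-22, 12 of 12 were tested, with 1 higher under low flow (ERBB3) and 2 under high flow (CDKN1A and HDAC4), and 0 lower in either (medians -0.021 and -0.015). The lists of the 2 hosts without counts gave 1 of 13 higher under each flow rate for miR-31 (ITGA5) and 2 of 13 under low flow for miR-155 (TP53INP1 and BACH1), with 0 lower. Several genes, BMF, CDKN1A, HDAC4, ERBB3 and ITGA5 among them, sit in more than 1 list.

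Of the genes that process microRNAs or carry out silencing, 31 of 33 were tested. Low flow had 2 higher and 0 lower than in static (median -0.064), and high flow 1 higher and 1 lower (median -0.076). Over all genes, 6.74% passed in either direction under low flow and 13.9% under high flow. DDX17, an RNA helicase of the DROSHA complex, rose under low flow (log2 fold change 0.38, adjusted p = 0.0304), as did AGO4, an Argonaute protein (0.49, adjusted p = 0.0354). DGCR8, the partner of DROSHA, had 50.5 and 50.7 CPM under high flow, against 40.5 and 40.5 CPM in static (0.32, adjusted p = 0.0348). PNPT1, a mitochondrial exoribonuclease, fell under high flow (-0.52, adjusted p = 0.00518). Between the flow rates 0 of 31 passed in edgeR or in DESeq2, and 1 had an unadjusted p under 0.05 in edgeR. Nothing is read from that 1, as the share of all genes at that threshold was not computed.

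The table has 58 other rows named as microRNA host genes, of which 26 were tested. Under low flow 1 was higher than in static and 0 were lower (median 0.035), and 0 passed in either direction in either comparison with high flow (medians 0.11 against static and 0.0034 against low flow). For high flow against static, 6 had an unadjusted p under 0.05 in edgeR as higher and 4 as lower, and DESeq2 called 1. For high flow against low flow the unadjusted numbers were 1 and 3, and DESeq2 called 0. The share of all genes at the unadjusted threshold was not computed, so nothing is read from these numbers. The 1 called under low flow was MIRLET7A1HG, host of a let-7 cluster, with 7.0 and 4.96 CPM in static, 9.79 and 12.9 CPM under low flow, and 7.23 and 9.59 CPM under high flow. It rose under low flow (log2 fold change 0.94, adjusted p = 0.0161), and high flow against static did not pass (0.51, adjusted p = 0.115). MIR193BHG, picked out after its values were seen, had 0.717 and 0.435 CPM in static, 0.988 and 3.35 CPM under low flow, and 2.95 and 2.82 CPM under high flow. Its first low flow library was the lower one, as for MIR210HG, and it passed in no comparison. Of 24 protein-coding genes with a microRNA in an intron, 2 were higher and 1 was lower under low flow than in static (median 0.088), and 3 were higher and 2 lower under high flow (median 0.14). CTDSP1 and CTDSP2, phosphatases that host members of the miR-26 family, rose under low flow (0.47, adjusted p = 0.0272, and 0.64, adjusted p = 0.0179) and under high flow (0.66, adjusted p = 0.0027, and 0.63, adjusted p = 0.0106). PPARGC1B, host of miR-378a, fell under low flow (-0.70, adjusted p = 0.0197) and under high flow (-0.56, adjusted p = 0.0334), SREBF1, host of miR-33b, rose under high flow (0.47, adjusted p = 0.0136), and SMC4 fell (-0.36, adjusted p = 0.0329).

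For each host with counts, the genes most alike across the 6 libraries were found by the root mean square difference of log2 CPM about each gene's own mean, among about 11667 genes that averaged at least 4 CPM. The nearest to MIR29B2CHG were TP53INP1 (0.369), ZNF33B (0.372) and IL1B (0.374). Against a root mean square of 0.628 for MIR29B2CHG about its own mean, these are loose likenesses. IL1B, the cytokine interleukin 1 beta, had 39.1 and 39.5 CPM in static, 50.1 and 66.4 CPM under low flow, and 41.4 and 42.7 CPM under high flow. As in MIR29B2CHG, its low flow libraries were the highest and the second of them the higher. Nearest to MIR222HG were TENM1 (0.0576), SLITRK6 (0.104) and ITGA1 (0.111), against 0.420 for MIR222HG itself, and TENM1 had 24.6 and 22.2 CPM in static, 38.8 and 47.8 CPM under low flow, and 37.1 and 33.0 CPM under high flow. MIR17HG was nearest to KLRC3 (0.127), MAP2K6 (0.143) and SPOCK3 (0.159). MIR210HG was nearest to C15orf48 (0.194), FIBCD1 (0.231) and MTCO1P12 (0.235), the last a near-identical copy of a mitochondrial gene with uncertain counts. C15orf48 had 3.69 and 2.22 CPM in static, 2.94 and 8.13 CPM under low flow, and 6.04 and 5.58 CPM under high flow, with the second low flow library highest as in MIR210HG. MIR22HG was nearest to TSPAN9 (0.0271), WDR73 (0.0389) and RPUSD4 (0.0460), and MIR100HG to ETV1 (0.0234), ZNF436 (0.0327) and IDH1 (0.0367). With 6 libraries and this many candidates, a close profile says nothing of a shared function.

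Genes within 100000 bases of a host mostly did not pass. Over all genes, 6.74% passed for low flow and 13.9% for high flow against static, and 0.334% for high flow against low flow. With so few neighbours per host, the counts below are not read as a result about a locus. The neighbour of MIR29B2CHG that was tested, 1 of 7 annotated, was CD46, a complement regulator on the opposite strand 6005 bases away. CD46 had 170 and 152 CPM in static, 199 and 232 CPM under low flow, and 169 and 189 CPM under high flow, with both low flow libraries above the others. CD46 rose under low flow against static (log2 fold change 0.42, adjusted p = 0.0236), and did not pass for high flow against static (0.15, adjusted p = 0.355) or against low flow (-0.27, adjusted p = 0.406). Of 11 tested neighbours of MIR210HG, 1 passed. LMNTD2, 4881 bases away on the same strand, had 4.13 and 3.43 CPM in static, 5.77 and 8.35 CPM under low flow, and 10.2 and 6.83 CPM under high flow. LMNTD2 rose under low flow (0.91, adjusted p = 0.04) and under high flow (1.17, adjusted p = 0.00714). Of 9 tested neighbours of MIR22HG, 0 passed in any comparison. TLCD2, 1055 bases from it on the same strand, had 15.3 and 16.2 CPM in static, 17.4 and 15.6 CPM under low flow, and 15.1 and 13.2 CPM under high flow. The tested neighbours of MIR100HG (BLID and UBASH3B) and of MIR17HG (GPC5) did not pass in any comparison either. Nor did LINC02595, which with AC234772.2 made up the tested neighbours of MIR222HG. BLID lies inside MIR100HG on the same strand and shares 83 bases of exon with it, so its counts are uncertain.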

How the data were processed

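The deposited file gives unnormalized read counts from the authors for 60591 gene rows in 6 libraries of polyadenylated RNA, made with a stranded kit. Per the submitters' processing notes it was made with STAR and featureCounts on hg38. Versions, settings and the gene annotation are not given in the sources used here. The labels name the column of each sample. Library totals are in the report.

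From these counts, edgeR 4.0.16 (R 4.3.3) gave a quasi-likelihood test per gene, with TMM scaling, robust dispersions, a minimum count of 10 and 1 fit over the 6 libraries, which left 3 residual degrees of freedom. Tests were two-sided, with Benjamini-Hochberg adjustment over 20676 genes per comparison and a threshold of 0.05. The fit was tested on simulated data. CPM values use the TMM factors and are means ± SD. Standard errors come from the test statistic. Replicates differed by more than sampling noise, with a chi-square per degree of freedom of 17.5 in static, 33.4 under low flow and 13.4 under high flow. Positions and exon lengths are from GENCODE 29, in which 55101 symbols matched 1 gene, and all sequences from RefSeq GRCh38.p14. Positions count from 1.

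The 8 members, the gene lists and the alternatives were chosen with earlier results of these data known. The text names all members in every comparison, up to 4 called genes per list, direction and comparison by p, and the 3 genes most alike each member. Tested neighbours within 100000 bases are named where they passed, and otherwise named or counted. Other genes named were picked after their values were seen. Alternatives were RLE scaling, no expression filter, DESeq2 1.42.0, only the 4 libraries compared, a replicate block, offsets for length and GC content, and leaving out each library. Genes that overlap on the same strand may share reads, which makes their counts uncertain.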

Additional observations from a re-analysis of the deposited data

How the results depend on the processing

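With 2 libraries per condition, single libraries moved the number of genes called. The count for low flow against static was 1394, and it was 2260 with no expression filter, 604 with only the 4 libraries compared and 95 to 3111 when 1 library was left out, lowest without the second static library. The count for high flow against static was 2878, and 300 to 4004 when 1 library was left out, lowest without the first high flow library. High flow against low flow gave 69 calls, 241 with no filter, 116 with DESeq2, 36 with only the 4 libraries, 41 with length and GC offsets and 4 to 294 when 1 library was left out. Host genes called, without MIR29B2CHG, numbered 2 of 5 for low flow against static, where 6.74% of all genes passed. They numbered 1 of 5 for high flow against static (13.9% of all genes). That number was 2 under no filter, 3 with only the 4 libraries and 2 with the offsets. For high flow against low flow they numbered 0 of 5 (0.334% of all genes). MIR29B2CHG itself was not called there with only the 4 libraries, or when either high flow library was left out. Its log2 fold change was then -1.35 without the first high flow library and -1.47 without the second. Its call for low flow against static was lost without the second static library, where the log2 fold change was 1.40. Calls of other hosts also changed when 1 library was left out, as described above. The log2 fold change for high flow against low flow changed sign without the second low flow library in MIR210HG (-0.77 to 0.73 when 1 library was left out) and MIR22HG (-0.062 to 0.15). The cause of these shifts was not tested. RLE scaling changed no host gene's call. The labels give the libraries only shared replicate numbers. A fit with the replicate number as a block called 907 genes for low flow against static, 2266 for high flow against static and 55 for high flow against low flow, and MIR17HG for low flow against static was 1.09 with an adjusted p of 0.0512 by edgeR. It changed no other host gene's call. Deviations of same-numbered libraries correlated at -0.144 for static and low flow, -0.0514 for static and high flow, and 0.138 for low flow and high flow. Depth limits the static values of MIR17HG and of the hairpin rows, some of which rest on under 10 counts.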
